A study of Mus musculus with 6 samples.

Results

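The genes described here are 30 genes of the cell division cycle, chosen by symbol from the 24346 gene rows measured in each of 6 mouse RNA-seq libraries. All 30 symbols have a row. By role, 17 act in G2 and mitosis, 9 act in DNA replication, and 4 are the G1 cyclins with the transcription factor E2F1. The tissue is labelled brain at embryonic day 17.5. In 3 libraries the genotype is labelled miR-124a-1/2 DKO, a double knockout of a pair of the genes that make the neuronal microRNA miR-124a. In the other 3 it is labelled control with the genotype miR-124a-1+/-, so the controls also lack a copy of miR-124a-1 and there is no wild type group. The sources used here do not give the strain, the litters, the state of miR-124a-3 or whether animals were pooled. Levels are the authors' FPKM, in which fragment numbers are divided by transcript length and by the mapped total, so levels of genes of different length can be set side by side.

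A dividing cell switches on the parts of its cycle in waves. Cyclin D with its kinases releases E2F factors from the retinoblastoma protein, E2F factors switch on the genes of DNA replication, and a later wave of genes builds the spindle, the kinetochores and the cyclin B-CDK1 kinase that drives mitosis. In cells that have left the cycle, the DREAM complex (E2F4 or E2F5, p130, MuvB proteins) keeps the genes of both waves silent. In the embryonic brain, mitotic genes mark the progenitors that line the ventricles. Several replication and checkpoint proteins also have tasks outside division, PCNA in DNA repair above all.

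The tissue label was checked against markers. All 10 genes of a list for rods, photoreceptors of the retina, were above 0, with sums of 14572 to 15972 FPKM in DKO libraries and 15222 to 16652 FPKM in control libraries. Of 10 markers of cortical progenitors, Emx1, Emx2 and Neurog1 were listed at 0 in all 6 libraries. The highest of the 10 were Insm1 and Hopx, at 35.6 and 31.9 FPKM. The rod markers and the forebrain markers at 0 go against the tissue label in both groups. The transcript Mir124a-1hg, which hosts miR-124a-1, averaged 492 ± 24.5 FPKM in DKO libraries and 480 ± 54.9 FPKM in control libraries (SD, n = 3 each). The transcript 2610100L16Rik, which hosts miR-124a-2, averaged 88.5 ± 16.2 FPKM in DKO libraries and 102 ± 18.9 FPKM in control libraries (SD, n = 3 each). Neither passed the test, and a transcript that extends beyond the deleted part checks nothing, so each group is known by its label alone. The steps between low values of genes with 1 annotated transcript gave a depth of about 6890000, 8520000 and 7860000 fragments in DKO replicates 1 to 3 and 6610000, 7220000 and 6980000 fragments in control replicates 1 to 3. These depths were read from the values and hold only if nothing beyond the fragment total was used to scale them.

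Mitotic and replication genes are known to be controlled through different promoter elements. The sequences below, from RefSeq (GRCm38.p6), run from 250 bases before the annotated start to 50 bases after it and are shown for 2 mitotic genes and 2 replication genes. They are Cdk1 (chr10:69352863-69353162, minus strand), Plk1 (chr7:122159185-122159484, plus strand), Mcm5 (chr8:75109259-75109558, plus strand) and Mcm6 (chr1:128359656-128359955, minus strand), with both strands searched. Capitals mark 3 motifs: the cell cycle genes homology region (CHR, TTTGAA or TTCGAA), to which MuvB proteins bind, the CCAAT box, bound by NF-Y, and the E2F element (TTTCCCGC, TTTGGCGC, TTTCGCGC or TTTGCCGC). On the strand shown they may read in reverse, as TTCAAA or ATTGG.
Cdk1: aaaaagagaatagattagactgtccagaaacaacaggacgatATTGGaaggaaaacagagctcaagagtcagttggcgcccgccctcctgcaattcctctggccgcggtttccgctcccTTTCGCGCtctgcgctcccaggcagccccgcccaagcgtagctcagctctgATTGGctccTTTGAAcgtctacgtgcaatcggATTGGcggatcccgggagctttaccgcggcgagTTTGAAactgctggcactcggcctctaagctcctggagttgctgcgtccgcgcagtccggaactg
Plk1: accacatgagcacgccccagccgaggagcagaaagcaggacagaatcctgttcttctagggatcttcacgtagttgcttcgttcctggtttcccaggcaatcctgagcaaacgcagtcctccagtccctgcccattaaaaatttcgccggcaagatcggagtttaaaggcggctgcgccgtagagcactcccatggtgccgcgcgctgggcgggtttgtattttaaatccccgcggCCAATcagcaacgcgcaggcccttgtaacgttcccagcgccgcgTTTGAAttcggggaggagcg
Mcm5: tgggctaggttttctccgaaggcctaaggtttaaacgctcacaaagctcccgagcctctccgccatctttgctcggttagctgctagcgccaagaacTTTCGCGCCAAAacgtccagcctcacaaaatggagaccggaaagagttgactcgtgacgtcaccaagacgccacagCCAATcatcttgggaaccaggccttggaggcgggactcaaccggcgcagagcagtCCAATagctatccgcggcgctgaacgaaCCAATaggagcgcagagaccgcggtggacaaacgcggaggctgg
Mcm6: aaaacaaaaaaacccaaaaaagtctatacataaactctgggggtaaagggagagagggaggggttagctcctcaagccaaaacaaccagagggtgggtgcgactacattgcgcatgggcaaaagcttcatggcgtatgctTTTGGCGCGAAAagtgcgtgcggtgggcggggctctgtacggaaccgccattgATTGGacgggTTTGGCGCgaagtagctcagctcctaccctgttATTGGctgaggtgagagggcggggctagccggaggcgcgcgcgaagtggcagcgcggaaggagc
In Cdk1 a CHR begins 15 bases before the start, and another 71 bases before it, close to a CCAAT box that begins at 80. Plk1 has its CHR 31 bases after the start. Mcm5 and Mcm6 hold no CHR, but each has E2F elements in both directions that share bases, and Mcm6 has another 47 bases before the start.

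Of the 30 genes, 24 have an entry in the RefSeq promoter table. The CHR was present in 11 of 14 promoters of G2 and mitosis genes and in 2 of 8 promoters of replication genes, against 21.7% of the 27025 genes in the table. The E2F element was present in 1 of 14 mitotic promoters (Cdk1) and in 4 of 8 replication promoters (Mcm3, Mcm5, Mcm6 and Mcm7), against 2.60% of all genes. The CCAAT box was present in 12 of 14 and in 7 of 8, against 41.1%. Neither Ccne1 nor E2f1 held any of the 3 motifs in this window, which says only that these letters are not in it. The E2f1 window (chr2:154569377-154569676, minus strand) lies wholly inside the gene, whose first base is annotated at 154569892. It may thus miss the E2f1 promoter, about which it says nothing. Among the mitotic genes, the CHR was in 7 of 10 promoters of genes with a mean under 1 FPKM and in 4 of 4 of those above it (Bub1b, Aurka, Plk1 and Hmgb2).

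Most of the 17 mitotic genes lay under the floor, while most of the 9 replication genes and all G1 cyclins were measured. In bulk tissue fewer cells of a type and less RNA per cell cannot be told apart, so a low level gives no number of dividing cells. The floor is a mean of 1 FPKM over the 6 libraries, which was also the filter of the test below. Under it lay 12 of the 17 genes of G2 and mitosis, 2 of the 9 replication genes and 0 of the 4 genes of the G1 set, against 45.7% of all rows. The median over the mitotic genes was 0.495, 0.281 and 0.458 FPKM in DKO replicates 1 to 3 and 0.415, 0.332 and 0.371 FPKM in control replicates 1 to 3. For the replication genes it was 2.74, 2.77 and 2.90 FPKM in DKO libraries and 3.58, 2.71 and 3.03 FPKM in control libraries. The median of the replication genes was above that of the mitotic genes in every library, and for each role the groups overlapped. Closest to the floor from below were Ube2c (mean 0.955 FPKM), Mcm3 (0.920) and Nusap1 (0.857), and from above Ccne2 (1.14) and Plk1 (1.21).

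**Figure D1:**
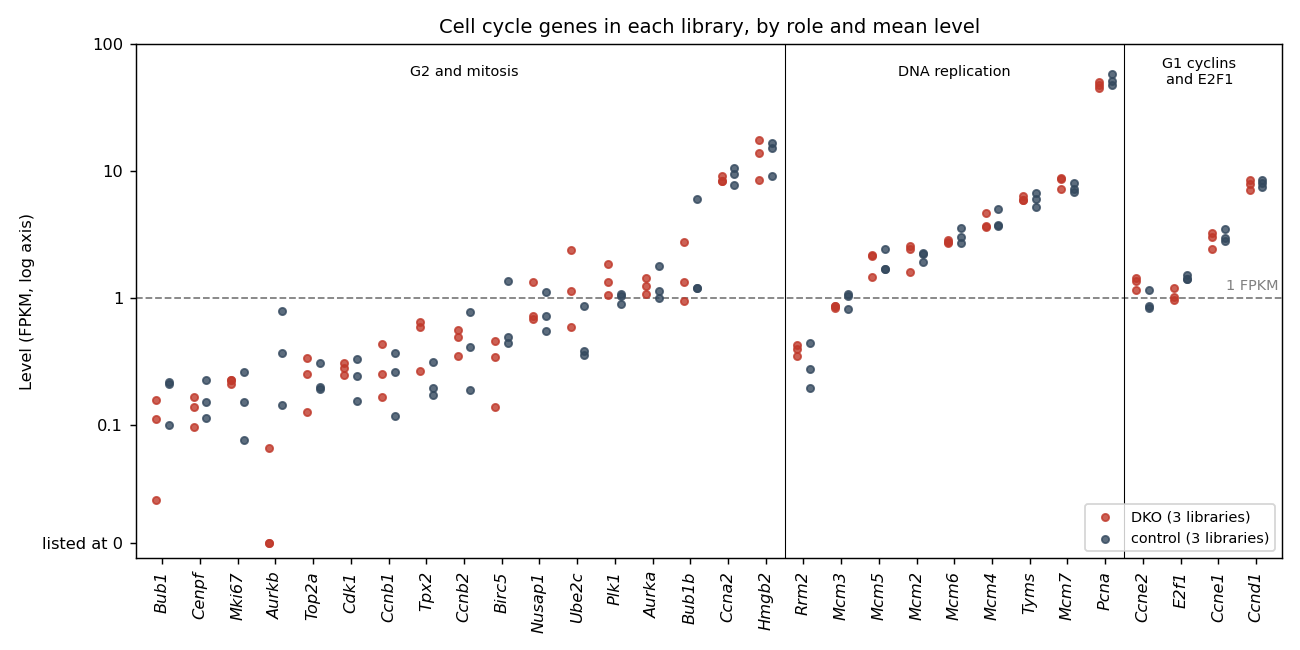
Level of each of the 30 cell cycle genes in FPKM on a log axis, 1 point per library, with DKO libraries left of control libraries; genes are ordered by mean level within 3 roles and the dashed line marks 1 FPKM. Of the genes of G2 and mitosis, 12 of 17 have a mean under the line, against 2 of 9 replication genes and 0 of 4 in the G1 set; Aurkb is listed at 0 in 2 DKO libraries.

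Mki67, whose protein coats mitotic chromosomes and serves as the common marker of dividing cells, measured 0.226, 0.226 and 0.212 FPKM in DKO libraries and 0.153, 0.0765 and 0.262 FPKM in control libraries. Control replicate 3 was the highest library and control replicate 2 the lowest, so the DKO libraries lay inside the range of the controls. The gene was above 0 in every library and lay at percentile 36.3 of all rows by mean level.

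Top2a, the topoisomerase that untangles sister DNA, had 0.341, 0.127 and 0.255 FPKM in DKO libraries and 0.192, 0.201 and 0.310 FPKM in control libraries. Cdk1, the kinase that drives entry into mitosis, had 0.248, 0.281 and 0.307 FPKM in DKO libraries, against 0.156, 0.332 and 0.245 FPKM in control libraries. Its partners Ccnb1 and Ccnb2 ranged from 0.120 to 0.438 and from 0.189 to 0.780 FPKM. In all 4 genes the groups overlapped, and no library was the lowest or the highest in all 4.

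The kinetochore genes Bub1 and Cenpf had the lowest means of the 30. Bub1, a kinase of the spindle checkpoint, ran from 0.0258 FPKM in DKO replicate 2 to 0.220 FPKM in control replicate 3 and averaged 0.139 FPKM. Cenpf, a large protein of the outer kinetochore, ran from 0.0973 to 0.227 FPKM. Nusap1, which bundles spindle microtubules, reached 0.549 to 1.34 FPKM.

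Against these, Ccna2 and Hmgb2 stood high among the mitotic genes. Ccna2, cyclin A2, which acts from S phase into mitosis, measured 9.21, 8.30 and 8.37 FPKM in DKO libraries and 7.84, 9.53 and 10.6 FPKM in control libraries. It exceeded Ccnb1 by 21.0 to 79.7 times within a library, and was the third highest of the 30 genes. In the annotation 378 exonic bases of Ccna2 lie opposite exons of Exosc9, a subunit of the RNA exosome at 15.4 FPKM. The library kit keeps the strand, but how strand was counted is not given, so how much of the Ccna2 value comes from Exosc9 cannot be told.

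Hmgb2, a chromatin protein of dividing cells that also occurs in other cells, measured 8.48, 13.8 and 17.5 FPKM in DKO replicates 1 to 3 and 9.21, 15.3 and 16.6 FPKM in control replicates 1 to 3. The 2 libraries numbered 1 were the lowest, each in its own group, and the groups covered the same range. The labels tie same-numbered libraries to nothing that is shared.

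The other mitotic genes above the floor were Bub1b, Aurka and Plk1. Bub1b, the checkpoint kinase relative BUBR1, measured 2.78, 0.952 and 1.35 FPKM in DKO libraries and 6.09, 1.20 and 1.20 FPKM in control libraries. The value of control replicate 1 stood apart from the other 5 and set the mean of its group. Aurka, a kinase of the spindle poles that also acts at the base of cilia, had 1.25, 1.07 and 1.45 FPKM in DKO libraries and 1.14, 1.79 and 0.9997 FPKM in control libraries. Plk1, the polo-like kinase of mitotic entry and exit, had 1.85, 1.07 and 1.34 FPKM in DKO libraries, or 28, 20 and 23 fragments. In control libraries it had 0.899, 1.07 and 1.04 FPKM, or 13, 17 and 16 fragments.

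The replication genes were led by Pcna, the sliding clamp of DNA polymerases, which also serves DNA repair. It measured 47.5, 45.2 and 50.2 FPKM in DKO libraries and 58.5, 47.6 and 51.4 FPKM in control libraries, and lay at percentile 93.5 of all rows. Reads of its processed copies Pcna-ps1 and Pcna-ps2, which have no row, could be counted with it. Tyms, thymidylate synthase, followed Mcm7 with 5.97, 5.88 and 6.32 FPKM in DKO libraries and 5.20, 6.03 and 6.74 FPKM in control libraries.

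The subunits of the replicative helicase, MCM2 to MCM7, work as a ring with 1 copy of each, but their transcripts were not at 1 level. Mean levels were 7.82 FPKM for Mcm7, 4.10 for Mcm4, 2.95 for Mcm6, 2.18 for Mcm2, 1.94 for Mcm5 and 0.920 for Mcm3. Mcm7 (6.88 to 8.84 FPKM) lay above every library of the other subunits, and Mcm3 (0.823 to 1.08 FPKM) below every one. Mcm2 (1.62 to 2.58 FPKM) and Mcm5 (1.48 to 2.45 FPKM) covered nearly the same range. Mcm7 shares 321 exonic bases with Ap4m1 and 64 with Cops6 on the opposite strand, and Cops6 averaged 70.8 FPKM, so the height of Mcm7 carries the same doubt as that of Ccna2.

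Rrm2, the subunit of ribonucleotide reductase that cells make in S phase, lay under the floor as Mcm3 did, and had the lowest mean of the replication genes. It measured 0.401, 0.432 and 0.355 FPKM in DKO libraries and 0.280, 0.447 and 0.197 FPKM in control libraries. These values are 6, 8 and 6 fragments in DKO libraries and 4, 7 and 3 in control libraries, each within 0.25 of a whole number.

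In the G1 set, Ccnd1, cyclin D1, which many cells outside the cycle express, measured 7.96, 8.53 and 7.14 FPKM in DKO libraries and 7.56, 8.10 and 8.56 FPKM in control libraries. It had the narrowest range of the 30 genes, with the highest library 1.20 times the lowest. Ccne1, cyclin E1, which takes cells into S phase, ran from 2.44 to 3.54 FPKM, and its relative Ccne2 from 0.831 to 1.43 FPKM. E2f1 ran from 0.966 to 1.53 FPKM. Ccnd1 and Ccne2 share 818 and 336 exonic bases with LTO1 (listed as Oraov1, 12.2 FPKM) and Ints8 (14.2 FPKM) on the opposite strand.

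The rest of the pathway was described by lists that hold no member. Of 35 other mitosis genes, 17 lay under the floor, and the median of the list was 1.06 FPKM. This share of 48.6% was near the 45.7% of all rows, against 70.6% of the 17 mitotic members. Of 35 other replication genes 6 lay under it, with a median of 6.39 FPKM, and of 17 other G1 and S regulators 6, with a median of 1.51 FPKM. The highest mitosis genes were Spc25, a subunit of the NDC80 kinetochore complex, at 46.4 ± 13.4 FPKM in DKO libraries and 59.7 ± 4.23 FPKM in control libraries (SD, n = 3 each), then Bub3 and Pttg1 (securin). Ndc80 and Nuf2, partners of SPC25 in that complex, averaged 0.115 and 0.278 FPKM. The highest replication genes were Rpa1, which binds single-stranded DNA, Rfc2, a subunit of the clamp loader, and Orc3 of the origin recognition complex, with mean levels of 55.3, 23.0 and 14.4 FPKM. Cdk4, the kinase partner of cyclin D, Tfdp1, the partner of E2F factors, and Ccnd3 led the G1 and S list at 35.4, 29.0 and 22.7 FPKM. Cdk6, a published target of miR-124, measured 2.01 ± 0.432 FPKM in DKO libraries and 2.13 ± 0.469 FPKM in control libraries (SD, n = 3 each).

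The arrest list, of genes tied to exit from the cycle, had a median of 14.6 FPKM, and 2 of 24 lay under the floor (Cdkn2a and Cdkn2b). Gas1 was also on the list of cortical progenitor markers, so the median does not measure arrest alone. Of the inhibitors of cyclin-dependent kinases, Cdkn1b (p27) averaged 33.8 ± 0.658 FPKM in DKO libraries and 32.98 ± 2.05 FPKM in control libraries (SD, n = 3 each). Cdkn2d averaged 25.8 ± 1.54 FPKM in DKO libraries and 25.2 ± 3.21 FPKM in control libraries, and Cdkn1c (p57) 17.8 ± 1.18 FPKM in DKO libraries and 19.7 ± 1.55 FPKM in control libraries (SD, n = 3 each). Cdkn1a (p21) ran from 5.92 to 9.20 FPKM over the 6 libraries and Cdkn2c from 3.03 to 4.61 FPKM. Of the DREAM subunits, E2f4, Rbbp4, Lin37, Lin52 and Rbl2 (p130) averaged 13.5 to 37.9 FPKM, while E2f5 had 8.66, Lin54 4.07 and Lin9 1.98 FPKM. Rb1 had 22.3 FPKM and its relative Rbl1 (p107) 1.27 FPKM. Fzr1, the activator of the anaphase-promoting complex in G1, had 29.4 FPKM, against 0.609 FPKM for Cdc20, its activator in mitosis. Btg1, Btg2, Gadd45a, Gadd45g, Gas1 and E2f6, the other arrest genes above the floor, averaged 7.76 to 34.0 FPKM.

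**Figure D2:**
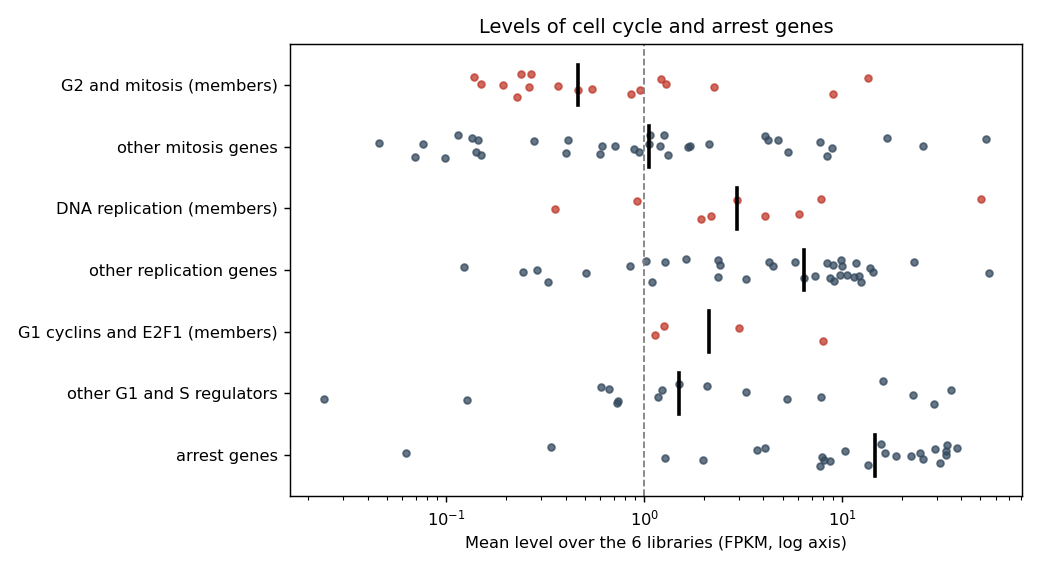
Mean level over the 6 libraries in FPKM on a log axis, 1 point per gene, for the 30 cell cycle genes by role (red) and for 4 other lists (dark); black bars are list medians, the dashed line marks 1 FPKM and the height of a point within its row has no meaning. The medians run from 0.465 FPKM for the mitotic genes and 2.95 FPKM for the replication genes to 14.6 FPKM for the arrest genes.

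The title of the study names neuronal maturation, and cells that mature have left the cycle. Between DKO and control libraries, none of the 30 genes passed the threshold of the test. Of the 16 genes with a mean of at least 1 FPKM, 0 passed in limma with Benjamini-Hochberg adjustment, against 0.0227% of the 13215 rows tested (3 rows). At an unadjusted p under 0.05 there were also 0 of the 16, against 7.88% of the rows tested (3.52% higher in DKO and 4.36% lower). Of these 16, 6 showed a positive log2 fold change and 10 a negative one, with a median of -0.04, where all tested rows had a median of -0.0016. The adjusted p ran from 0.662 (E2f1) to 0.998 (Mcm5) in limma with Benjamini-Hochberg adjustment. The 95% confidence interval lay within 0.5 of 0 on the log2(FPKM + 1) scale for 11 of the 16 and within 1 for 15, Bub1b being the exception (-1.39 to 0.73). For Pcna the interval was -0.32 to 0.05, for Ccnd1 -0.23 to 0.17, for Ccna2 -0.34 to 0.15 and for Tyms -0.21 to 0.25. Bub1b had a log2 fold change of -0.33, and of 0.23 without control replicate 1. Fold changes on this scale understate those of low genes.

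The 14 genes under the floor were fitted with no filter, over 18580 rows. Of these 14, 0 passed (limma, Benjamini-Hochberg adjusted p 0.616 to 0.992), against 0.0161% of the rows. At an unadjusted p under 0.05 there were 2, Aurkb and Tpx2, against 7.23% of the rows (3.44% higher in DKO and 3.78% lower). In the same fit E2f1 (unadjusted p = 0.0290, limma) and Ccne2 (unadjusted p = 0.0496, limma) also fell under 0.05, which makes 4 of all 30 genes, and 0 of the 30 passed after adjustment. The groups did not overlap in 1 of the 14, which was lower in DKO libraries, against 5.96% of the rows (with 6.06% higher).

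**Figure D3:**
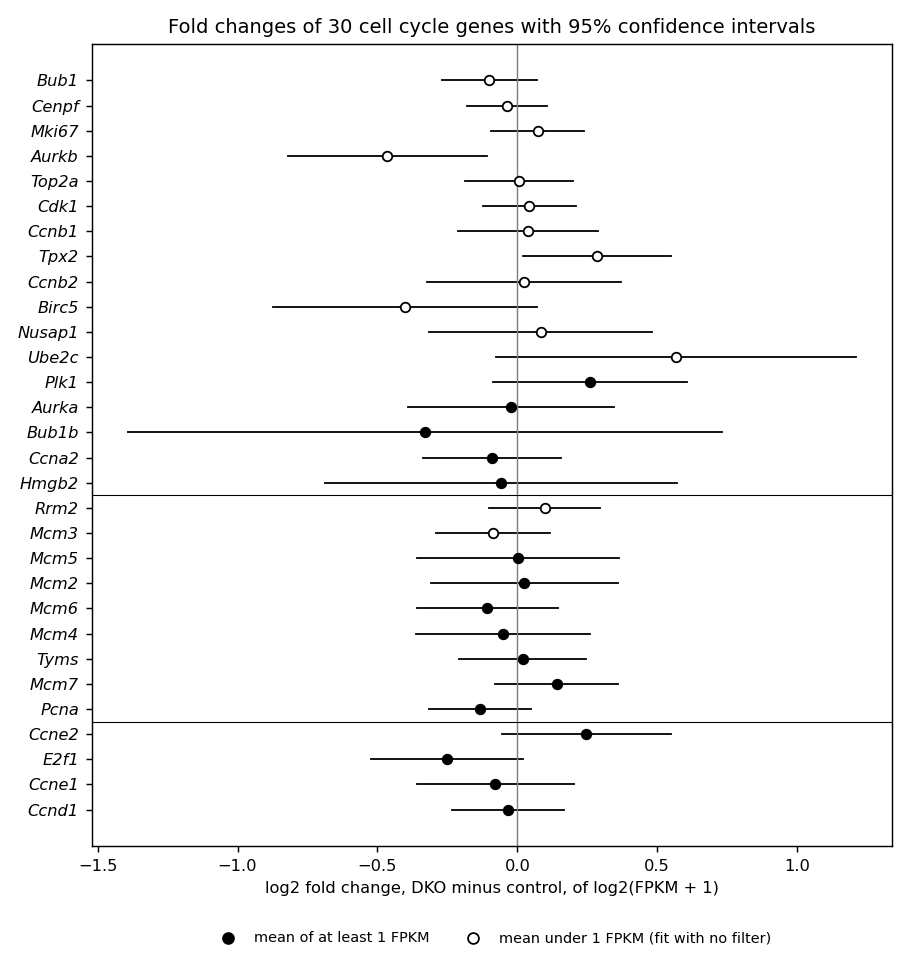
log2 fold change (DKO minus control, of log2(FPKM + 1)) of each of the 30 genes with its 95% confidence interval from limma, n = 3 libraries per group; filled points are genes with a mean of at least 1 FPKM, open points genes under it from the fit with no filter, and lines separate mitotic (top), replication and G1 genes. None passed after adjustment, and the widest interval is that of Bub1b, -1.39 to 0.73.

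Aurkb was the gene whose groups did not overlap. It encodes the kinase of the chromosomal passenger complex, which corrects the attachment of chromosomes to the spindle. Its gene lies at chr11:69045647-69051664 (mm10). It was listed at 0 in DKO replicates 1 and 2 and at 0.0667 FPKM in DKO replicate 3, against 0.789, 0.144 and 0.371 FPKM in control libraries. With its transcript of 1950 bases these are 0, 0 and 1 fragments in DKO libraries and 10, 2 and 5 in control libraries. A value of 0 allows up to 0.223 and 0.181 FPKM in DKO replicates 1 and 2 (3 fragments, for counting error only), which is above the value of control replicate 2. The log2 fold change was -0.47 (SE 0.15, unadjusted p = 0.0175), and it did not pass (limma, Benjamini-Hochberg adjusted p = 0.616). Without control replicate 1 it was -0.29 (limma, Benjamini-Hochberg adjusted p = 0.609).

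Birc5 (survivin), a subunit of the same complex, measured 0.344, 0.140 and 0.458 FPKM in DKO libraries and 0.447, 0.496 and 1.38 FPKM in control libraries. Control replicate 3 stood apart, and the groups overlapped. In that library the summed level of 8 microglia markers was 50.5 FPKM, against 33.7 to 37.8 FPKM in DKO libraries and 34.1 and 34.3 FPKM in the other control libraries. The summed level of 5 red cell genes was also highest there, 30.7 FPKM, against 12.8 to 21.1 FPKM in DKO libraries and 17.2 and 18.5 FPKM in the other control libraries. No microglia marker was at 0 in all libraries. Ccnb2, Mki67, Ccna2, Bub1, Tyms and Ccnd1 were highest in the same library, while Aurka, Ube2c, Rrm2, Mcm3 and Mcm7 were lowest in it. The part of microglia and red cells in the values was not tested. Incenp, the scaffold of the complex, averaged 8.35 FPKM and Cdca8 (borealin) 0.711 FPKM.

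Tpx2 and Ube2c had fold changes above 0. Tpx2, which activates Aurora A on spindle microtubules, had 0.599, 0.269 and 0.647 FPKM in DKO libraries and 0.174, 0.318 and 0.197 FPKM in control libraries, or 18, 10 and 22 fragments in DKO libraries and 5, 10 and 6 in control libraries. DKO replicates 1 and 3 lay above all controls and DKO replicate 2 did not. Its log2 fold change was 0.28 (SE 0.11, unadjusted p = 0.0391; limma, Benjamini-Hochberg adjusted p = 0.673). Ube2c, the enzyme that hands ubiquitin to targets of the anaphase-promoting complex, had 2.38, 0.593 and 1.13 FPKM in DKO libraries and 0.384, 0.877 and 0.361 FPKM in control libraries. Its log2 fold change of 0.57 (95% confidence interval -0.08 to 1.21) became 0.28 without DKO replicate 1.

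Among the measured genes the groups did not overlap in E2f1 and Ccne2, 2 of 16, against 13.9% of the rows tested (6.96% higher in DKO and 6.95% lower). Ccne2 passed the filter on low values through the DKO libraries, which averaged 1.32 FPKM, since the control libraries averaged 0.956 FPKM, so its place in this count gives no support. E2f1, at chr2:154559407-154569892 (mm10), measured 1.21, 1.02 and 0.966 FPKM in DKO libraries and 1.53, 1.42 and 1.41 FPKM in control libraries, or 23, 24 and 21 fragments in DKO libraries and 28, 28 and 27 in control libraries. Each DKO library lay below each control, by a log2 fold change of -0.25 (SE 0.12, unadjusted p = 0.0656; limma, Benjamini-Hochberg adjusted p = 0.662). Ccne2, a gene that E2F factors switch on, measured 1.36, 1.43 and 1.16 FPKM in DKO libraries and 0.831, 1.16 and 0.874 FPKM in control libraries. DKO replicate 3 and control replicate 2 were equal to 3 digits, and the log2 fold change was 0.25 (SE 0.13, unadjusted p = 0.0946; limma, Benjamini-Hochberg adjusted p = 0.71). With a pseudocount of 0.1 the fold changes were -0.42 for E2f1 and 0.43 for Ccne2, and neither passed.

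**Figure D4:**
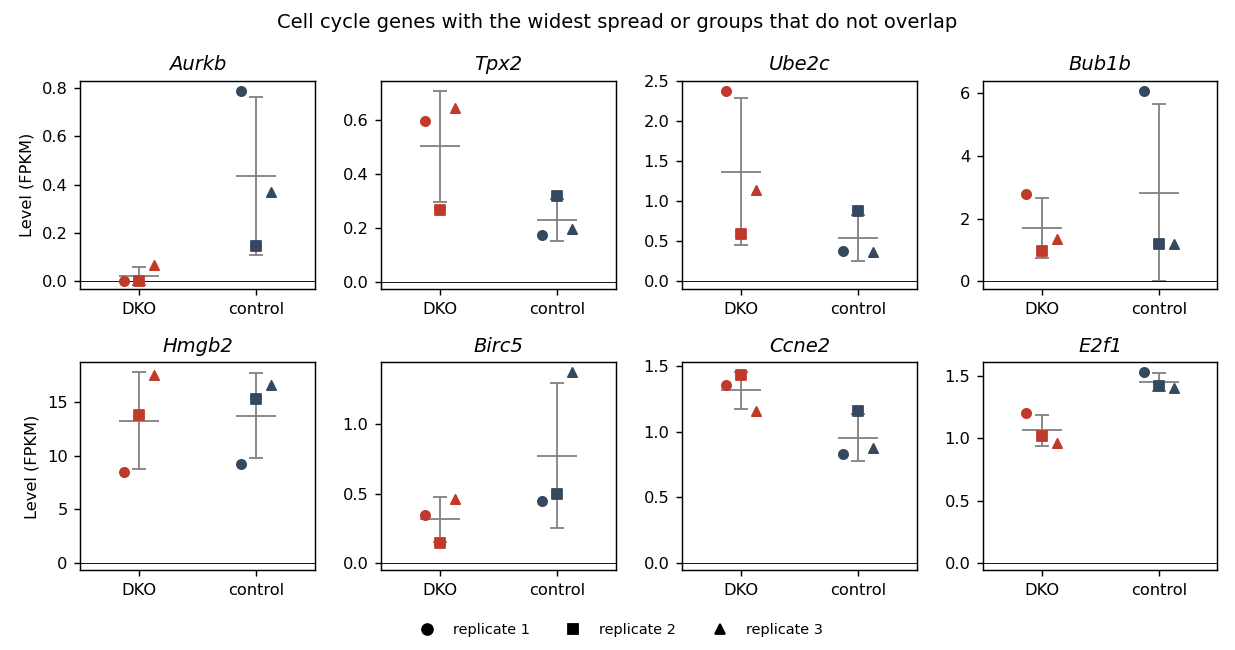
Level in FPKM of 8 cell cycle genes, chosen after their values were seen, with DKO libraries left of control libraries; points are single libraries, shaped by replicate number, and grey bars give the mean and SD (n = 3). The groups do not overlap in Aurkb, E2f1 and Ccne2, while Bub1b is set apart by control replicate 1 (6.09 FPKM) and Birc5 by control replicate 3 (1.38 FPKM).

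Of the 30 genes, 8 lie on chromosome 2, among them Tpx2, Ube2c, Bub1b, Pcna and E2f1. Chromosome 2 held more rows of small p than the rest of the genome, 12.5% of 1007 tested rows with an unadjusted p under 0.05 against 7.41% of 11732. The part of the chromosome in the values of these genes was not tested.

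Of the other lists, 0 of 18 tested mitosis genes, 0 of 29 replication genes, 0 of 11 G1 and S regulators and 0 of 22 arrest genes passed in limma with Benjamini-Hochberg adjustment. Of these 80, 3 had an unadjusted p under 0.05, or 3.75%, against 7.88% of all tested rows. They were Ccnf among the mitosis genes and Gins2 among the replication genes, with log2 fold changes above 0, and Dut among the replication genes, below 0. The median log2 fold changes were -0.02, 0.0021, -0.06 and -0.03 in that order of lists. Spc25 measured 30.9, 55.3 and 52.9 FPKM in DKO libraries and 61.7, 62.7 and 54.9 FPKM in control libraries. Its log2 fold change of -0.40 (limma, Benjamini-Hochberg adjusted p = 0.681) was -0.14 without DKO replicate 1. Cdk6 had -0.06, with 0.0687 without DKO replicate 1 and 0.0634 without control replicate 2, and Cdkn1b had 0.04.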

How the data were processed

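The data are 6 stranded mRNA libraries (TRIzol, TruSeq), 3 labelled DKO and 3 labelled control, per the labels' protocols. Each file holds a gene symbol and FPKM, as deposited by the authors and per the file headers, in which the DKO columns carry the letters CKO. Per the submitters' processing notes, the tools were TopHat2 2.1.1, Bowtie2 and Cuffdiff 2.2.1, with build mm10. The annotation, strand setting and scaling were not stated in the labels or headers.

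Groups followed the titles. The test was that of limma 3.58.1 (R 4.3.3; eBayes with a trend) for DKO minus control, applied to log2(FPKM + 1) of rows averaging 1 FPKM or more, with Benjamini-Hochberg adjustment over all rows and a threshold of 0.05. Genes under that mean were fitted with no filter. No list was tested. The fit was tested on simulated data. The labels number the replicates without saying how they were obtained, so p-values measure the spread between these libraries, which may be technical.

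Depth was read from products of FPKM and transcript length below 0.3 FPKM, in genes with 1 transcript of over 1500 bases in GENCODE M21 (GRCm38). Their most frequent value was taken as 1 fragment, and 70.6% to 75.6% of the products under 3.5 fragments lay within 0.1 of a whole number. Fragment numbers used the transcript whose values came nearest to whole numbers. Coordinates and exon overlaps use the same annotation. Python 3.11.15 with pandas 2.3.3 and NumPy 2.4.6 was used.

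The members and lists were chosen with earlier results of these data known. All 30 members are named; of other lists, the 3 of highest level, genes past the threshold, arrest genes above the floor and Cdk6. Other genes named from those lists, and Ccnf, Gins2 and Dut, were chosen after their values were seen. Of the marker lists for other cells only those a result touches are described. Alternatives were pseudocounts, filters, scalings, the replicate block, other variance models and leaving out each library.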

Additional observations from a re-analysis of the deposited data

How the results depend on the processing

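No paired analysis was made the main one, since the replicate numbers are tied to nothing shared. The correlation of deviations from the group means was 0.0718, 0.00634 and 0.101 between libraries that share a number. Between libraries of different number it ran from -0.119 to 0.0363. With the replicate block 2 rows passed in place of 3, and 0 of the cell cycle genes.

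Of the members, 0 passed under any alternative run. Over all rows, 3 passed, 1 with eBayes without a trend, and 1 to 4 when each library was left out. Control replicate 2 is the library whose omission left 1.

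The number of mitotic genes under the floor, 12 of 17, was 9 with a floor of 0.5 FPKM and 14 with a floor of 2 FPKM. It was 11 or 12 when each library was left out. The number of replication genes under the floor was 1 with a floor of 0.5 FPKM, and that of G1 genes was 2 with a floor of 2 FPKM. Without Hmgb2 and Ccna2 the median level of the mitotic genes was 0.367 FPKM.

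For 14 members, the sign of the log2 fold change reversed in at least 1 of the fits that left out a library, and the cause was not tested. For Bub1b only the omission of control replicate 1 did this, while for Mcm5 and Top2a the omission of any of several libraries did. Leaving out each library gave -0.61 to 0.23 for Bub1b, -0.12 to 0.12 for Aurka, -0.30 to 0.21 for Hmgb2, -0.0597 to 0.17 for Mcm2, -0.15 to 0.0652 for Mcm4, -0.0661 to 0.12 for Mcm5 and -0.0649 to 0.0953 for Tyms. It gave -0.0868 to 0.0277 for Ccnd1, -0.14 to 0.0113 for Ccne1, -0.0521 to 0.0733 for Top2a, -0.0442 to 0.11 for Ccnb1, -0.11 to 0.18 for Ccnb2, -0.0103 to 0.0923 for Cdk1 and -0.0698 to 0.21 for Nusap1. With a pseudocount of 0.1, Top2a had -0.0060. The other 16 members kept their sign under every alternative that gave them a value. Depth limits the genes under the floor, most of which rest on fewer than 30 fragments in every library by these estimates. The same holds above the floor for Aurka (13 to 24 fragments), Plk1 (13 to 28) and E2f1 (21 to 28). Intervals cover libraries, not animals.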
